A study of Drosophila melanogaster with 12 samples.

Results

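The Yellow gene family of Drosophila melanogaster was followed across whole adult flies of both sexes, with and without ectopic MSL2. Its members were the genes named y, yellow-b, yellow-c, yellow-d, yellow-d2, yellow-e, yellow-f, yellow-g, yellow-g2 and yellow-k in the deposited tables, which are 10 of 14161 genes. Yellow proteins are secreted proteins related to the major royal jelly proteins of the honey bee. The founding gene, y, is needed for black melanin in the cuticle, in a pathway that begins with tyrosine and dopamine. yellow-f and its neighbour yellow-f2 encode enzymes that convert dopachrome, a melanin intermediate. yellow-g and yellow-g2 are neighbours in a region that follicle cells of the ovary amplify, and they act in the formation of the eggshell. The roles of most other members in the fly are less well known.

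RNA was sequenced from 12 libraries in 4 groups of 3 biological replicates: MSL2 males, MSL2 females, control males and control females. MSL2 is the subunit of the male-specific lethal complex that females normally lack; the complex binds the male X chromosome. MSL2 females had the genotype y w; (w+) H83M2-6I/+; +/+, in which the P-element insert carries msl2 and a mini-white marker, and control males and control females were y w; +/+; TM3/+. For MSL2 males the labels give the transgene but no full genotype, and no age is stated for any group. Every stated genotype thus carries a y mutation, whose allele is not named, so that the values of y are RNA levels in y mutant flies. TM3, a balancer of chromosome 3, was present in control flies and absent from MSL2 females. In females an effect of the transgene and an effect of the balancer thus cannot be told apart for any gene. yellow-e and yellow-f on 3R and yellow-g, yellow-g2 and yellow-k on 3L lie on the balanced chromosome itself.

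The libraries held 27729411 to 79622278 counts with 1 transcript kept per gene, and 3 counts corresponded to 0.0388 to 0.107 CPM (counts per 1000000 of the TMM-scaled library). The transgene was seen in msl-2 RNA, which averaged 490 ± 92.8 CPM in MSL2 males, 526 ± 85.3 CPM in MSL2 females, 31.6 ± 0.963 CPM in control males and 17.4 ± 1.92 CPM in control females (SD, n = 3 each). The sex labels matched the summed level of 5 female genes (Yp1, Yp2, Yp3, vas and osk), which was 9156 to 16860 CPM in female and 47.8 to 93.6 CPM in male libraries. MSL2 female 1 was the lowest female library in this sum, with 9156 CPM against 11290 CPM or more, and also in summed eggshell transcripts, as given with yellow-g. Intervals implied by the counts cover counting error alone, and in whole flies fewer cells of a type and less RNA per cell cannot be told apart.

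Each member was represented by 1 transcript. y lies on the X chromosome, yellow-b and yellow-c on 2L, yellow-d and its neighbour yellow-d2 on 2R, and the other 5 on chromosome 3. In the annotation 8 of the 10 overlap a gene on the opposite strand. The overlap covers 1197 of 1600 exonic nucleotides of yellow-c, shared with l(2)35Bg (CIAPIN1, an iron-sulphur cluster assembly factor), and 873 of 1034 of yellow-k, shared with the noncoding asRNA:CR43159. It covers 100 nucleotides of yellow-b, shared with CG13278 (ppk17), 95 of yellow-f, shared with CG31342, and 23 of yellow-g, shared with CG32302. It covers none of the exons of y, yellow-d and yellow-d2, which lie within the span of another gene (CG32816 for y, CG13551 for yellow-d and yellow-d2). No source used here says whether counting used strand, so reads of yellow-c and yellow-k cannot be separated from those of their partners.

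Divided by transcript length, the members spanned a wide range of levels. In control females yellow-d was highest at 44.7 ± 5.73 CPM per kilobase. Below it came yellow-e at 31.5 ± 11.1, yellow-c at 25.5 ± 8.37, yellow-g at 23.1 ± 11.7, yellow-g2 at 20.6 ± 11.4, yellow-d2 at 19.7 ± 6.93 and yellow-b at 14.7 ± 2.90 CPM per kilobase (SD, n = 3). yellow-k at 3.81 ± 0.348, y at 3.23 ± 1.27 and yellow-f at 2.25 ± 0.181 CPM per kilobase formed a lower set. In this order the libraries of neighbouring genes overlapped at each step except that between yellow-b and yellow-k. In control males the order was yellow-e (37.5 ± 4.80 CPM per kilobase), yellow-c (31.3 ± 2.07), yellow-d2 (26.9 ± 6.44), yellow-d (22.6 ± 3.19), yellow-b (16.5 ± 1.08), y (6.49 ± 1.62), yellow-k (6.42 ± 0.907), yellow-f (2.89 ± 0.258), yellow-g (1.80 ± 0.558) and yellow-g2 (0.382 ± 0.126). There yellow-e to yellow-d overlapped step by step, as did y and yellow-k, and the other neighbours did not overlap. MSL2 males kept the order of control males except that yellow-k, at 7.20 ± 0.390, stood above y, at 4.90 ± 1.10 CPM per kilobase. In MSL2 females yellow-e led at 33.6 ± 15.9 and yellow-k was last at 1.84 ± 1.07 CPM per kilobase, and all neighbours overlapped.

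**Figure D1:**
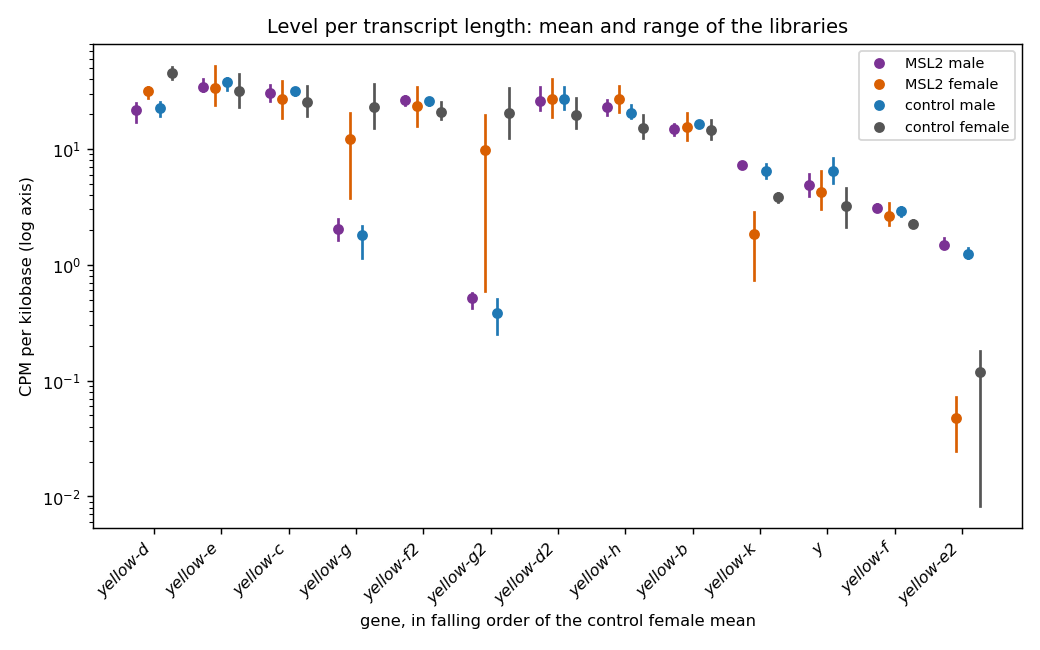
Level per transcript length in CPM per kilobase on a log axis for the 10 members and for yellow-e2, yellow-f2 and yellow-h, in falling order of the control female mean. Points are means and lines span the lowest to the highest of 3 libraries; yellow-g and yellow-g2 are the members with the widest gap between males and females, and yellow-g2 spans 0.59 to 19.7 CPM per kilobase among MSL2 females.

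The main question of the series is how MSL2 females compare with control females. None of the 10 members passed the edgeR test there at an adjusted p of 0.05, whereas 10.3% of 13060 genes did (6.62% higher and 3.67% lower). yellow-d and yellow-k had the smallest p-values of the members and were the 2 whose groups did not overlap, against 26.6% of all genes without overlap. Their log2 fold changes, MSL2 females over control females, were -0.51 and -1.06, with edgeR adjusted p of 0.0585 and 0.0716. Both had an unadjusted p below 0.05. DESeq2 called both lower (adjusted p of 0.0191 and 0.0230), against 15.7% of all genes called by that tool. An edgeR fit of only the compared groups called neither (adjusted p of 0.108 and 0.258). Without control female 2 the edgeR adjusted p of yellow-d was 0.219. The median log2 fold change of the members was 0.07, beside -0.01 over all genes.

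Between control males and control females, 4 members passed the edgeR test, against 71.9% of all genes. y rose in control males, against 34.4% of all genes called higher, and yellow-d, yellow-g and yellow-g2 fell, against 37.6% called lower. The groups did not overlap for 6 members (the 4 called, yellow-f and yellow-k), while 77.0% of all genes showed no overlap. With RLE scaling, DESeq2, only the compared groups or the lowest-total transcript 6 members were called, yellow-f and yellow-k being the added ones, both higher. As each member has 1 transcript, the lowest-total setting left the members' counts unchanged and acted only through the other genes. The median log2 fold change of the members was 0.27, beside 0.01 over all genes.

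**Figure D2:**
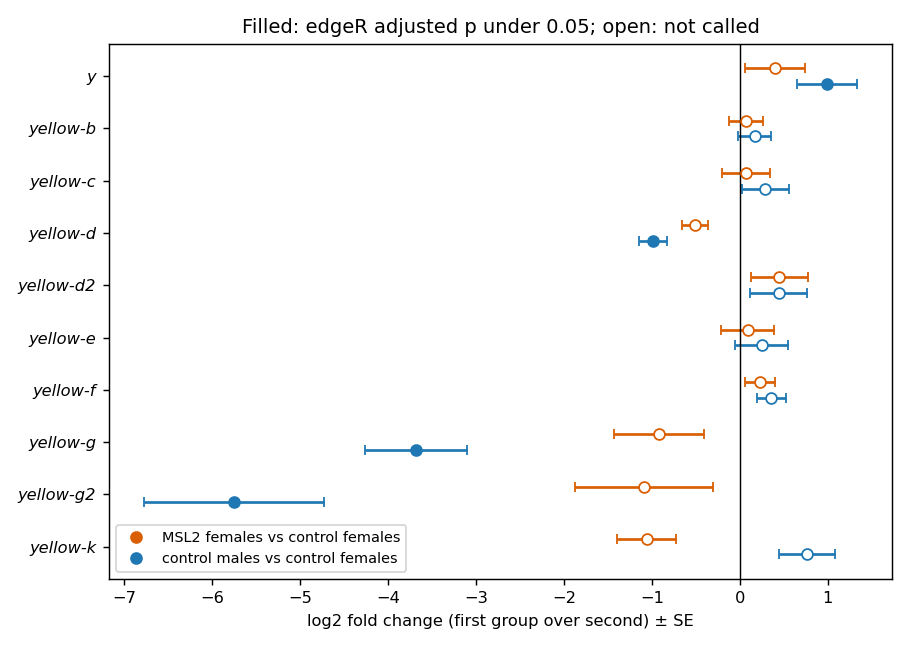
Fitted log2 fold change with its SE (horizontal axis) for each member (vertical axis), for MSL2 females over control females and for control males over control females, comparisons that share the control female libraries. Filled points passed an edgeR adjusted p of 0.05, which none did for MSL2 females; yellow-k lies on opposite sides of 0, at -1.06 and 0.76, with neither called.

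Among the pigment genes, y (2 exons, X chromosome) had 9.50, 12.4 and 8.01 CPM in MSL2 males, 13.2, 6.22 and 6.78 CPM in MSL2 females, 10.4, 16.9 and 12.4 CPM in control males, and 4.29, 6.07 and 9.38 CPM in control females. Every control male lay above every control female, and MSL2 female 1 lay above the other MSL2 females and all control females. y was higher in control males than in control females by 0.99 ± 0.34 on the log2 scale (SE, edgeR adjusted p = 0.0214). The call rested on individual libraries, since it was lost without control male 2 (adjusted p = 0.0978), control female 1 (0.0768) or control female 2 (0.0728). The X-linked genes as a whole had a median of -0.23 in that comparison. In MSL2 females over control females y stood at 0.40 ± 0.34 (adjusted p = 0.455), beside a median of 0.19 for the 2075 X-linked genes tested and -0.04 for the autosomal ones. Without MSL2 female 1 its value was -0.04.

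yellow-f had 4.44, 4.79 and 4.20 CPM in MSL2 males, 4.91, 3.20 and 3.22 CPM in MSL2 females, 4.23, 3.76 and 4.49 CPM in control males, and 3.09, 3.07 and 3.53 CPM in control females. MSL2 female 1 was the highest of all libraries, and the other females lay below every male. Control males did not overlap control females, at 0.36 ± 0.17 on the log2 scale (edgeR adjusted p = 0.0704). This value passed the threshold under 4 of 13 alternative settings, with adjusted p of 0.0175 to 0.0367. In MSL2 females over control females it was 0.23 ± 0.17 (adjusted p = 0.375).

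yellow-e, whose silkworm counterpart affects larval colour, had 58.1, 73.5 and 58.9 CPM in MSL2 males, 95.7, 44.0 and 46.0 CPM in MSL2 females, 72.7, 75.8 and 59.1 CPM in control males, and 42.5, 50.4 and 81.4 CPM in control females. MSL2 female 1 and control female 3 stood well above the other females of their groups, and every male library lay below both of them. The log2 fold changes were 0.09 ± 0.30 for MSL2 females over control females (edgeR adjusted p = 0.870) and 0.25 ± 0.30 for control males over control females (adjusted p = 0.480).

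The 3 members of chromosome 2 other than yellow-d showed the same libraries on top. yellow-b had 37.1, 25.9 and 22.1 CPM in MSL2 females against 22.2, 26.0 and 32.8 CPM in control females, with male libraries between 24.4 and 32.2 CPM. yellow-c had 61.9, 37.3 and 29.7 CPM in MSL2 females against 30.6, 35.8 and 56.0 CPM in control females, with male libraries between 41.6 and 56.5 CPM. yellow-d2 had 53.8, 25.4 and 29.1 CPM in MSL2 females against 20.2, 22.0 and 37.1 CPM in control females, with male libraries between 29.0 and 45.9 CPM. In each of these genes MSL2 female 1 and control female 3 were the highest of their groups and the groups overlapped. The log2 fold changes of MSL2 females over control females were 0.07 for yellow-b, 0.07 for yellow-c and 0.45 for yellow-d2, with edgeR adjusted p of 0.373 to 0.883. Those of control males over control females were 0.17, 0.29 and 0.44, with adjusted p of 0.240 to 0.440.

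The counts of yellow-c stayed at 31.5% to 37.0% of those of l(2)35Bg, the gene it overlaps, in all 12 libraries. The log2 ratio averaged -1.52 ± 0.12 in MSL2 females and -1.58 ± 0.11 in control females (SD, n = 3 each; exact two-sided permutation p = 0.6, with 0.1 the smallest possible). l(2)35Bg itself had a log2 fold change of 0.02 for MSL2 females over control females and 0.29 for control males over control females. Whether the reads of yellow-c come from its own strand was not tested.

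**Figure D3:**
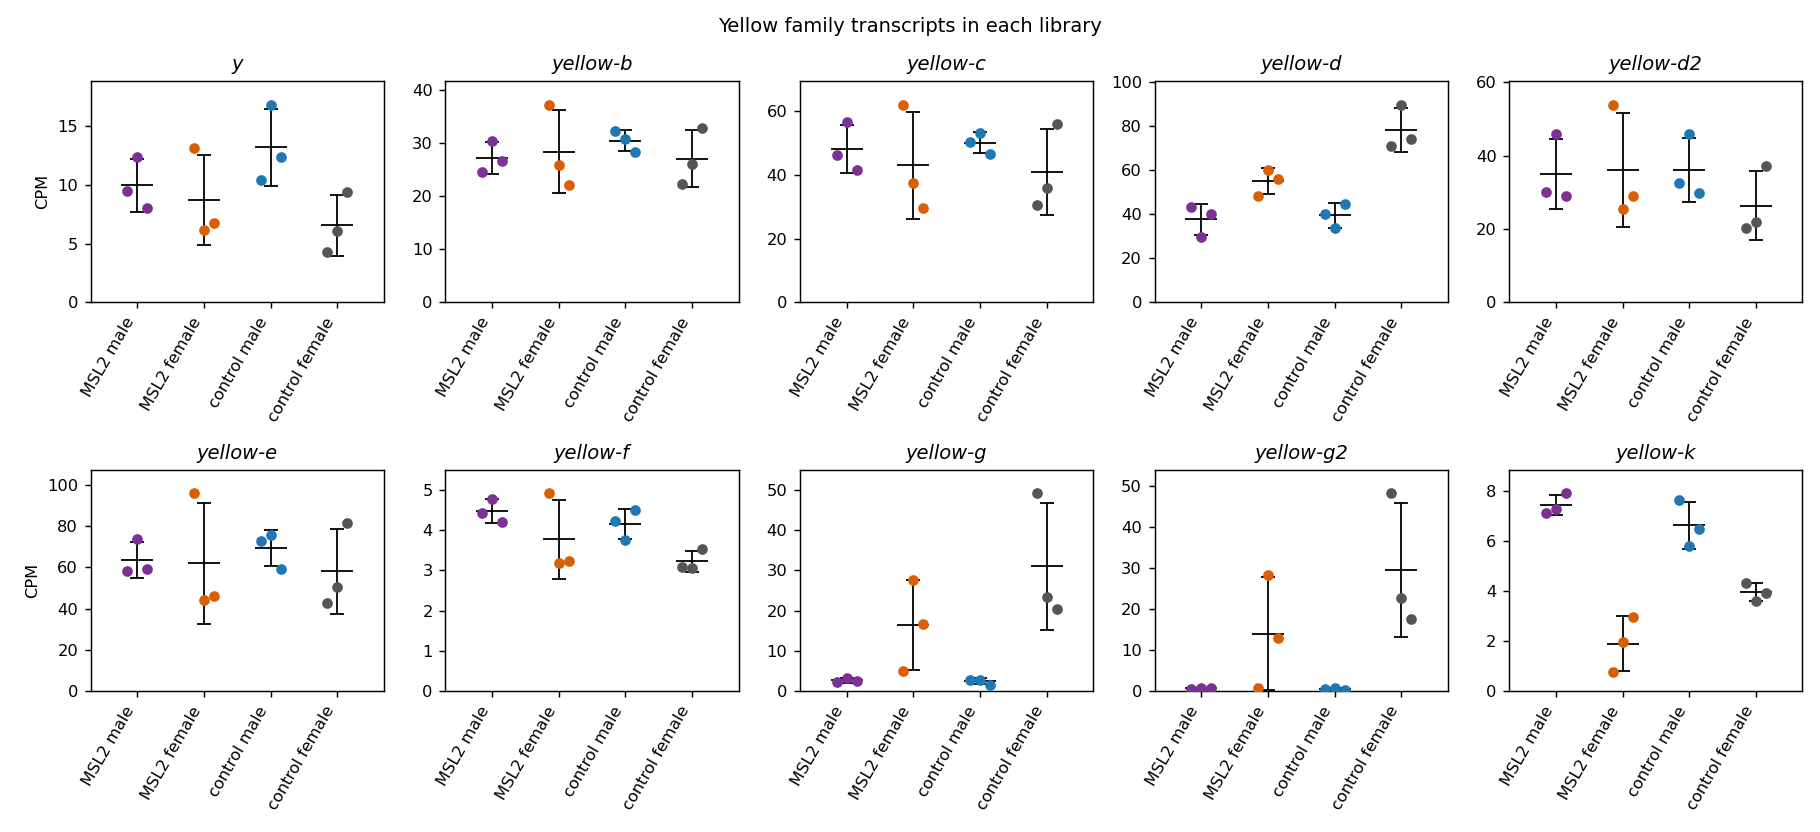
CPM of each member (vertical axis, its own scale from 0) in every library of the 4 groups (horizontal axis); points are libraries 1 to 3 from left to right, the long bar is the mean and the whiskers are 1 SD (n = 3). yellow-d is highest in control females, yellow-g and yellow-g2 are near 0 in males, yellow-k is lowest in MSL2 females, and MSL2 female 1 is the top library of its group for 6 members.

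yellow-d had 43.1, 29.8 and 40.3 CPM in MSL2 males, 48.5, 60.1 and 56.2 CPM in MSL2 females, 39.9, 33.7 and 44.8 CPM in control males, and 70.8, 89.7 and 74.3 CPM in control females. The MSL2 females lay below every control female and above every male. yellow-d fell in control males relative to control females, with a log2 fold change of -0.99 ± 0.16 (SE, edgeR adjusted p = 0.000126). It also fell in MSL2 males relative to MSL2 females, at -0.54 ± 0.15 (adjusted p = 0.00855). In that comparison 4 members were called, 1 higher and 3 lower, against 70.1% of all genes (31.5% higher and 38.5% lower), and the groups of 4 members and of 71.0% of all genes did not overlap. It was higher in MSL2 females than in control males, at 0.47 ± 0.15 (adjusted p = 0.0169), where again 4 members were called, 3 higher and 1 lower, against 69.9% of all genes (38.6% higher and 31.3% lower). The groups of 4 members did not overlap there, nor did those of 70.5% of all genes. That call was lost with RLE scaling (adjusted p = 0.0550) and without MSL2 female 2 (0.0631). CG13551, in whose span yellow-d and yellow-d2 lie on the opposite strand without sharing exons, fell, at -0.25 ± 0.06 in MSL2 females over control females (adjusted p = 0.0283) and -0.49 ± 0.06 in control males over control females (adjusted p = 1.77e-05). yellow-d2, the neighbour on the same strand, was not called in any comparison.

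yellow-k, a gene of 1 exon, had 7.14, 7.29 and 7.90 CPM in MSL2 males, 0.769, 1.95 and 2.97 CPM in MSL2 females, 7.64, 5.78 and 6.49 CPM in control males, and 4.32, 3.60 and 3.91 CPM in control females. Males were above females in every library, and MSL2 females were below control females in every library. The lowest library, MSL2 female 1, rested on 41 counts. yellow-k rose in MSL2 males relative to MSL2 females, with a log2 fold change of 1.98 ± 0.34 (edgeR adjusted p = 0.00026), and fell in MSL2 females relative to control males, at -1.81 ± 0.34 (adjusted p = 0.000507). In control males over control females it stood at 0.76 ± 0.32 (adjusted p = 0.0517), and passed the threshold under the same 4 alternatives as yellow-f, with adjusted p of 0.00185 to 0.0480.

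In MSL2 females over control females yellow-k was at -1.06 ± 0.34 (edgeR adjusted p = 0.0716). Leaving out MSL2 female 3 gave -1.62 (adjusted p = 0.00851), and leaving out MSL2 female 1 gave -0.64 (0.0604). The difference of the transgene effect between the sexes, females minus males, was -1.22 ± 0.46 (unadjusted p = 0.0231, edgeR adjusted p = 0.299). No member passed that test, against 1.26% of all genes (1.06% higher and 0.207% lower), and yellow-k was the 1 member with an unadjusted p below 0.05. With a library left out the difference ran from -1.78 to -0.80. Of 18 alternatives 1 gave a call, the fit without MSL2 female 3 (-1.78, adjusted p = 0.0479), and the adjusted p of the others ran up to 0.483.

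yellow-g and yellow-g2, the eggshell pair, set the widest sex difference among the 10 members. yellow-g had 2.21, 3.36 and 2.61 CPM in MSL2 males, 5.10, 27.6 and 16.7 CPM in MSL2 females, 2.81, 2.88 and 1.55 CPM in control males, and 49.1, 23.5 and 20.5 CPM in control females. yellow-g2 had 0.606, 0.819 and 0.778 CPM in MSL2 males, 0.844, 28.2 and 13.0 CPM in MSL2 females, 0.559, 0.720 and 0.360 CPM in control males, and 48.1, 22.6 and 17.6 CPM in control females. Males were low throughout, and MSL2 female 1 was at 45 counts of yellow-g2 and close to the males. MSL2 female 2 lay within the range of the control females, and MSL2 female 3 lay below every control female in both genes.

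Both genes fell in control males relative to control females, with log2 fold changes of -3.68 ± 0.58 for yellow-g (SE, edgeR adjusted p = 0.000122) and -5.75 ± 1.02 for yellow-g2 (adjusted p = 0.000331). They fell in MSL2 males relative to MSL2 females, at -2.58 ± 0.56 (adjusted p = 0.00141) and -4.23 ± 0.96 (adjusted p = 0.00206). They were higher in MSL2 females than in control males by 2.75 ± 0.56 (adjusted p = 0.00098) and 4.66 ± 1.01 (adjusted p = 0.00141). For yellow-g2 the values without MSL2 female 2 were 3.66 in MSL2 females over control males and -3.23 in MSL2 males over MSL2 females, both still called. In MSL2 females over control females yellow-g was at -0.92 ± 0.51 (adjusted p = 0.244) and yellow-g2 at -1.09 ± 0.78 (adjusted p = 0.368), neither called. Without MSL2 female 1 these were -0.49 and -0.52, and without MSL2 female 2 they were -1.51 and -2.08. CG32302, which overlaps yellow-g by 23 nucleotides on the opposite strand, averaged 0.269 ± 0.0509 CPM in MSL2 females and 0.924 ± 0.209 CPM in control females (SD, n = 3 each) and fell, at -1.71 ± 0.28 (adjusted p = 0.00389). These levels rested on 15, 6 and 16 counts in MSL2 females and 37, 57 and 53 in control females. Among other overlapping genes, CG32816 (0.26 ± 0.21, adjusted p = 0.427), CG13278 (-0.09 ± 0.25, 0.830) and CG31342 (-0.36 ± 0.15, 0.133) were not called in that comparison.

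The other eggshell genes varied between the same libraries. The summed level of 11 vitelline membrane genes, which build the inner layer of the eggshell, was 511, 1267 and 2117 CPM in MSL2 females and 2820, 2828 and 2678 CPM in control females. The summed level of 13 chorion genes, for the outer layers, was 360, 969 and 1031 CPM in MSL2 females and 3458, 2217 and 1307 CPM in control females. Every MSL2 female lay below every control female in both sums, and MSL2 female 1 was lowest. The chorion sum is not limited to females, since it was 85.4 to 211 CPM in male libraries. There Pxd alone averaged 138 ± 50.9 CPM in MSL2 males and 110 ± 32.6 CPM in control males (SD, n = 3 each). Of the vitelline membrane genes 3 of 11 (27.3%) fell in MSL2 females by the edgeR test, beside 3.67% of all genes, and the list median was -1.33, beside -0.01 over all genes. They were Fcp3C (-1.18 ± 0.23, adjusted p = 0.0114), ndl, a protease that starts dorsoventral patterning (-1.16 ± 0.28, 0.0271), and psd (-1.62 ± 0.46, 0.0496). Of the chorion genes Cp7Fb fell (-2.92 ± 0.81, adjusted p = 0.0443), which is 7.69% of the list, and the list median was -2.23. None of either list rose. In control males all 11 vitelline membrane and 12 of 13 chorion genes fell relative to control females, beside 37.6% of all genes.

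Within each library the pair was set against these sums. The count ratio of yellow-g to yellow-g2 on the log2 scale was 2.60, -0.03 and 0.36 in MSL2 females and 0.03, 0.05 and 0.22 in control females. Among males it ran between 1.74 and 2.33, so that MSL2 female 1 was nearer to the males than to any other female. The mean ratio was 0.97 ± 1.42 in MSL2 females and 0.10 ± 0.10 in control females (SD, n = 3 each; exact two-sided permutation p = 0.4), a difference of 0.87 that was 0.06 without MSL2 female 1. Relative to the vitelline membrane sum, yellow-g averaged -6.39 ± 0.77 in MSL2 females and -6.60 ± 0.65 in control females on the log2 scale (exact permutation p = 0.6). Relative to the chorion sum it averaged -5.74 ± 0.53 in MSL2 females and -6.23 ± 0.30 in control females (exact permutation p = 0.3). For yellow-g2 the differences, MSL2 females minus control females, were -0.66 against the vitelline membrane sum and -0.38 against the chorion sum (exact permutation p of 0.7 and 0.8). With the mean log2 CPM of the chorion genes in place of their sum, the differences were 1.56 for yellow-g (0.49 with the sum) and 0.68 for yellow-g2. With 3 libraries against 3 the smallest possible p is 0.1, so none of these ratios could have passed a threshold of 0.05.

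**Figure D4:**
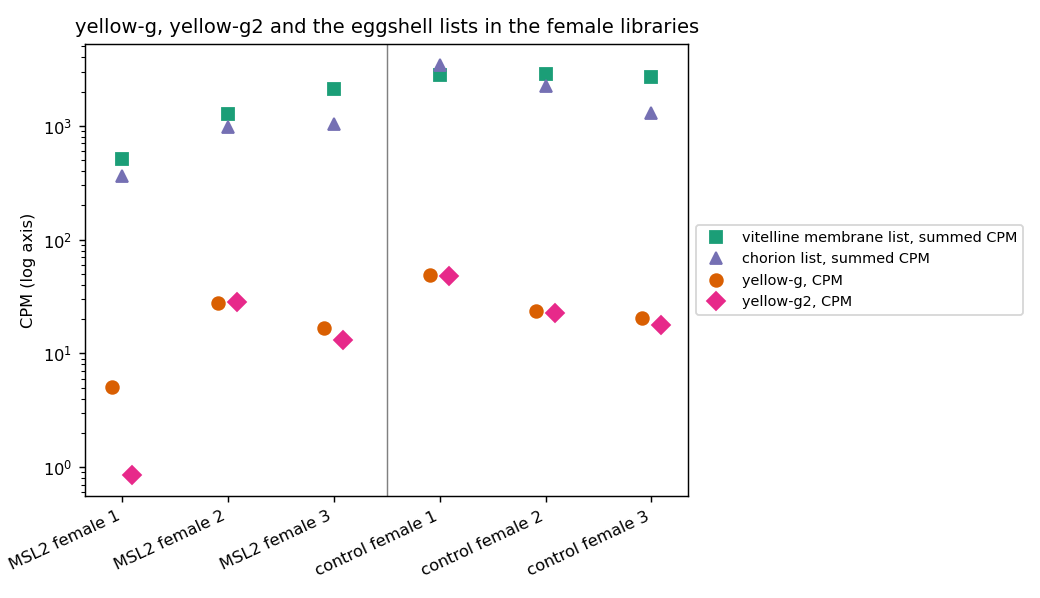
CPM of yellow-g and yellow-g2 and summed CPM of the vitelline membrane list (11 genes) and the chorion list (13 genes) on a log axis, in each female library along the horizontal axis. MSL2 female 1 is lowest in all 4 measures, and its yellow-g2, at 0.844 CPM, lies farthest from the other females.

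Between MSL2 males and control males no member was called by edgeR, with 0 members at an unadjusted p below 0.05 and 0 called by DESeq2. The edgeR share over all genes was 0.812%. The members' log2 fold changes lay between -0.41 and 0.43, and no member's groups were free of overlap, against 23.2% of all genes.

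The other yellow genes of the genome gave 2 further patterns. yellow-h, on chromosome 4, had 29.6, 39.4 and 33.9 CPM in MSL2 males, 52.2, 37.9 and 31.1 CPM in MSL2 females, 27.7, 35.9 and 28.6 CPM in control males, and 19.8, 18.7 and 29.2 CPM in control females. It shares 182 of 1504 exonic nucleotides with the noncoding asRNA:CR46065 on the opposite strand. Every MSL2 female lay above every control female, and yellow-h rose by 0.84 ± 0.22 (edgeR adjusted p = 0.0347). The call was lost in a fit of only the compared groups (adjusted p = 0.154) and when MSL2 female 1 (0.0965), MSL2 female 2 (0.0643), control female 1 (0.124) or control female 2 (0.127) was left out. yellow-e2, beside yellow-e on 3R, had 113, 101 and 136 counts in MSL2 males, 6, 2 and 2 in MSL2 females, 117, 80 and 85 in control males, and 9, 16 and 1 in control females. It rose in control males relative to control females by 3.56 ± 0.51 (edgeR adjusted p = 5.56e-05), with 2.82 without control female 3 and 4.26 without control female 2. In MSL2 males relative to MSL2 females it rose by 4.92 ± 0.59 (edgeR adjusted p = 1.3e-05), beside -4.23 for yellow-g2. yellow-e3, the third gene of that cluster, had at most 16 counts in any library and was not tested. yellow-f2 was at 34.2 ± 14.4 CPM in MSL2 females and 30.4 ± 5.89 CPM in control females (SD, n = 3 each), with a log2 fold change of 0.17 (adjusted p = 0.663).

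The remaining pigment pathway was described from a list of 16 genes for enzymes of dopamine, melanin and cuticle synthesis and their cofactors. In MSL2 females relative to control females t rose and amd and Catsup fell by the edgeR test, or 18.8% of the list beside 10.3% of all genes. t, which releases dopamine from its conjugate with beta-alanine, stood at 0.42 ± 0.11 (adjusted p = 0.0442). amd, a cuticle enzyme related to dopa decarboxylase, averaged 5.14 ± 0.150 CPM in MSL2 females and 7.59 ± 0.147 CPM in control females (SD, n = 3 each; -0.56 ± 0.09, adjusted p = 0.00333). Catsup, a regulator of tyrosine hydroxylase, stood at -0.29 ± 0.07 (adjusted p = 0.0267). The list median was -0.00, beside -0.01 over all genes. In control males relative to control females 3 rose and 5 fell, or 50% of the list beside 71.9% of all genes, among them Hn, the phenylalanine hydroxylase (0.51 ± 0.15, adjusted p = 0.00772), and amd (-0.62 ± 0.09, adjusted p = 5.72e-05).

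Of a list of 10 transcription factors linked to the regulation of y or of abdominal pigment, exd, a Hox cofactor, rose in MSL2 females relative to control females (0.42 ± 0.07, edgeR adjusted p = 0.00382), the 1 call of the list, or 10% beside 10.3% of all genes. It fell in control males relative to control females (-0.62 ± 0.07, adjusted p = 5.47e-06), where 5 rose and 2 fell, or 70% of the list beside 71.9% of all genes. The list median in MSL2 females was 0.24, beside -0.01 over all genes. dsx, the sex determination factor, averaged 69.0 ± 2.97 CPM in control males and 30.8 ± 3.48 CPM in control females (1.16 ± 0.11, adjusted p = 2.34e-06). Abd-B, the Hox gene of the posterior abdomen that activates y in males, averaged 21.8 ± 0.593 CPM in control males and 11.3 ± 1.48 CPM in control females (SD, n = 3 each; 0.94 ± 0.11, adjusted p = 1.12e-05). In MSL2 females over control females Abd-B was at 0.35 ± 0.11 (adjusted p = 0.0667).

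The spread among replicates was shared between members. y, yellow-b, yellow-c, yellow-d2, yellow-e and yellow-f were each highest in MSL2 female 1 and in control female 3 of their groups, a pattern shown by 30.3% of all 13060 genes, and by yellow-f2 and yellow-h. In males y, yellow-c, yellow-d2, yellow-e, yellow-g and yellow-g2 were highest in MSL2 male 2 and control male 2, a pattern shown by 19.3% of all genes. y, yellow-c, yellow-d2 and yellow-e showed both, as did 10.1% of all genes. MSL2 female 1 also had the lowest vitelline membrane and chorion sums. Control female 3 had the lowest of the control females, at 2678 and 1307 CPM. These 2 libraries also held the most counts of their groups, 56843908 in MSL2 female 1 and 79622278 in control female 3. The part of the eggshell sums or of depth in the pattern was not tested. The summed level of the pigment list was likewise highest in these 2 female libraries, at 3116 CPM in MSL2 female 1 and 2151 CPM in control female 3, against 1331 to 1947 CPM in the other females.

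**Figure D5:**
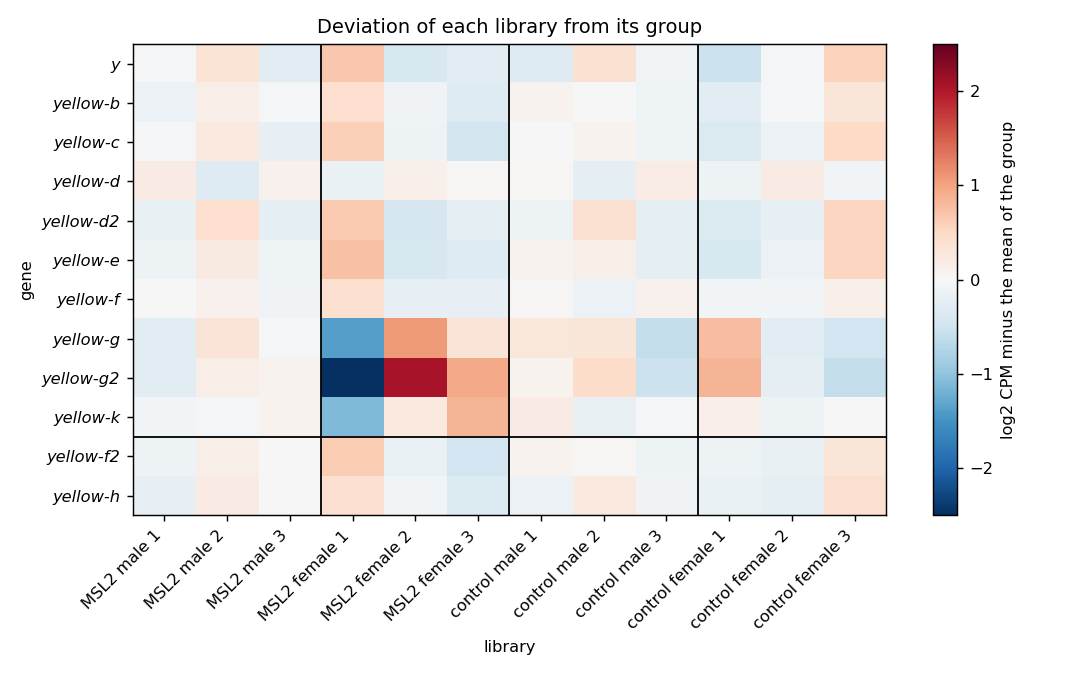
Each library's log2 CPM minus the mean of its group (colour scale, in log2 units) for the 10 members and, below the line, yellow-f2 and yellow-h; columns are the 12 libraries, and yellow-e2 and yellow-e3 are left out for their low counts. MSL2 female 1 and control female 3 are red for the 6 members from y to yellow-f other than yellow-d, and MSL2 female 1 is blue for yellow-g, yellow-g2 and yellow-k.

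The genes closest to y, yellow-g and yellow-g2 were sought among 10960 genes by the root mean square difference of log2 CPM, after each gene's own mean was taken off. For y over 12 libraries they were CG11345 (0.17), LvpH (Mal-A1, a maltase; 0.21), hbs (a cell adhesion protein; 0.22), CG10348 (0.23) and CG4363 (0.23), none of them X-linked. The nearest member was yellow-d2 at 0.27. For yellow-g over 12 libraries they were wech, CG9883, CG5235, CG3509 (BigH1, a histone of the early embryo and germ line) and CG6967, at 0.44 to 0.45. For yellow-g2 they were CG4570, Cyp6a19, vfl (zelda, the activator of the embryonic genome), mtrm and Obp19c, at 0.91 to 0.95, and yellow-g followed at 0.96. Over the 6 female libraries alone, Hsp27 was nearest to yellow-g (0.33), with dhd (0.34) and twe (0.40) also among the nearest 5. The other 2, CG13186 and CG2857, passed the level filter through their male libraries and averaged 0.0367 and 0.449 CPM in MSL2 females, where 3 counts correspond to 0.0563 to 0.107 CPM, so that no likeness is read from them. The nearest to yellow-g2 in females were CG1077 (0.55), Ir7c (0.62) and CG14834 (0.65), followed by 2 eggshell genes, dec (0.74) and Vm32E (0.77), ahead of yellow-g (0.91). These distances describe the libraries and carry no test.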

How the data were processed

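Total RNA of whole adult flies was extracted with TRIZOL and made into TruSeq libraries, per the labels' protocols. The submitters' processing notes name TopHat, HTSeq and dm3, without versions. The authors deposited raw read counts per RefSeq transcript in 2 tables (19040 autosomal and 3698 X-linked transcripts), each with a deposited fraction, the count over its table's column total (largest difference 5.00e-10). No test used the fractions. The row of column totals in each table was left out, and 15 gene names stored as date serials were restored through their identifiers.

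The transcript with the highest total was kept per gene (14161 genes). Counts were tested in R 4.3.3 with edgeR 4.0.16: TMM, filterByExpr with a minimum count of 10, a quasi-likelihood fit of group means over all 12 libraries and Benjamini-Hochberg adjustment over 13060 genes, with a threshold of 0.05. The SE is the absolute log2 fold change over the square root of F. DESeq2 1.42.0, RLE scaling, TMM from autosomal genes, no filter, a replicate block, only the compared groups, the lowest-total transcript and leaving out each library were alternatives. Replicates of a group differed beyond sampling noise. The edgeR p-values set each difference against the spread between samples labelled biological replicates, with an estimate per gene that all groups share. In simulated counts of MSL2 females against control females (13029 genes), 34.3% of 1.5-fold, 77.6% of 2-fold and 95.5% of 4-fold changes were called. There 66 or 67 genes were changed per fold, drawn from genes above a minimum mean CPM, with noise from each gene's fitted dispersion. The shares are averages over such genes and do not give the share for a single member.

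The 10 members and the lists were chosen with earlier results of these data known. The text names all members and other yellow genes, overlapping genes, of each list up to 4 genes with the smallest p in a comparison, and the 5 genes nearest to y, yellow-g and yellow-g2 with a mean log2 CPM of at least 1. Chromosomes, lengths and overlaps come from the Ensembl annotation of a later build than dm3, so no coordinates are given.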

Additional observations from a re-analysis of the deposited data

How the results depend on the processing

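Of 31 single-gene results and 408 alternatives, 377 kept direction and side of the threshold, 11 lost and 12 gained a call, and 8 reversed. The number of members called in MSL2 females over control females was 2 with DESeq2 (yellow-d and yellow-k) and 0 to 1 with a library left out, the 1 being yellow-k. With a library left out it was 3 to 8 for MSL2 females over control males, the 8 without MSL2 female 1, 3 to 4 for control males over control females, 4 to 5 for MSL2 males over MSL2 females and 0 to 1 for the difference of the transgene effect. For control males over control females it was 6 with RLE scaling, DESeq2, only the compared groups and the lowest-total transcript. With a library left out, the log2 fold changes of MSL2 females over control females that reversed ran from -0.04 to 0.75 for y, -0.18 to 0.23 for yellow-b, -0.29 to 0.37 for yellow-c, -0.37 to 0.42 for yellow-e and -0.01 to 0.34 for yellow-f. The ratio differences ran from -0.22 to 0.59 for yellow-g to the vitelline membrane sum, -1.60 to 0.28 for yellow-g2 to the vitelline membrane sum and -1.19 to 0.63 for yellow-g2 to the chorion sum, which was 0.68 with the mean log2 CPM of the list. They ran from 0.06 (without MSL2 female 1) to 1.38 for yellow-g to yellow-g2 and from 0.19 to 0.69 for yellow-g to the chorion sum, which was 1.56 with the mean log2 CPM of the list. The cause was not tested. Replicate numbers did not pair the samples (correlations of same-numbered samples from -0.556 to 0.598). With a replicate block 0 members were called in MSL2 females over control females and 4 in control males over control females, the counts without it, and among named results yellow-h lost its call (adjusted p = 0.0842). The scaling moved the median of all genes in MSL2 females over control males between -0.00 (RLE) and 0.17 (autosomal TMM).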
